A study of Mus musculus with 32 samples.

Results

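The experiment described here is a single interval, from 8 to 16 h, of a course in which mouse embryonic stem cells left the naive state while Xist RNA was switched on from 1 X chromosome. It was chosen by time label: 2 mRNA-seq libraries at 16 h are set against 2 libraries at 8 h, which makes 4 of the 10 libraries of the differentiating course and 4 of the 32 libraries of the series, whose other courses are mRNA-seq and PRO-seq of undifferentiated cells. All 4 libraries come from TX1072, a female F1 hybrid line of 57BL/6 (B6) and CAST/EiJ (Cast) parents that carries a doxycycline-responsive promoter at Xist on the B6 X and an rtTA insertion in Rosa26. Cells had been kept in serum, LIF and 2i (a Gsk3 and a MEK inhibitor) on gelatin, and Xist was induced with 1 µg/ml doxycycline. The course has 2 libraries each at 0, 8, 16, 24 and 48 h. Its labels give only hours of doxycycline treatment for each library, so doxycycline time and differentiation time cannot be told apart. The labels do not say how differentiation was started, all libraries come from 1 line in which an inducible promoter drives Xist, and no label says that the 2 libraries of a time point are separate cultures. The p-values therefore measure the spread between libraries, which may be technical.

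X inactivation equalises X-linked dosage between XX and XY mammals. Xist RNA spreads in cis over the chromosome that makes it, recruits SPEN and other repressors, and RNA polymerase and active histone marks are lost from most genes, while a minority escapes. In mouse cells the process starts as the naive pluripotent state is left for the formative state, when Otx2 and the de novo DNA methyltransferases come on and Nanog, Tfcp2l1 and Prdm14 go off. In an F1 hybrid, sequence differences between the parents assign reads to an allele. The B6 share is the part of allele-assigned reads of a gene that carry B6 bases, so silencing of the B6 X lowers it from near 50%. These are bulk samples: more cells that have silenced a gene and deeper silencing in each cell cannot be told apart.

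Values were deposited as RPKM (reads scaled to transcript length and library size) and as the B6 share per gene. The table held 15012 genes, 541 of them X-linked. Total RNA was tested in the 12220 genes that averaged 0.5 RPKM or more, on log2(RPKM + 0.5), so that folds of weakly expressed genes are understated. The B6 share was tested in the 10225 genes that averaged 1 RPKM or more, 285 of them on the X, on the log2 odds of the share. Both used limma over all 10 libraries of the course, with Benjamini-Hochberg adjustment over all genes tested and a threshold of 0.05. The absolute depth of the libraries is unknown. From the steps between low RPKM values, the 16 h libraries were 1.13 to 1.27 times as deep as the 8 h libraries. In weakly expressed genes, the only ones used for this, replicate libraries differed more than reads drawn by chance alone would. The chi-square per degree of freedom was 1.29 over 3973 genes at 8 h and 1.44 over 4220 genes at 16 h. For well-expressed genes this was not tested. RPKM of autosomal genes had a median change of 0.04 (log2) over the interval.

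The labelled differentiation was visible in its marker genes. Otx2, a homeobox factor of the formative epiblast, read 3.91 and 4.12 RPKM at 0 h, 25.4 and 25 at 8 h, 43.3 and 42 at 16 h and 49.8 and 50.7 at 24 h. The 16 h libraries lay above both 8 h libraries, a 1.68-fold rise (log2 change 0.75, SE 0.0392, limma adjusted p = 4.71e-08). Dnmt3b, a de novo DNA methyltransferase, read 91.9 and 87.1 RPKM at 8 h and 157 and 153 at 16 h, again with no overlap, a 1.73-fold rise (log2 change 0.79, SE 0.0375, limma adjusted p = 2.50e-08). For Otx2 the rise was smaller than that from 0 to 8 h, and the difference between the 2 steps passed the test (−1.76 on the log2 scale, adjusted p = 4.16e-09 in limma), while for Dnmt3b the difference from that step did not pass (difference -0.01, SE 0.0650, adjusted p = 0.864). Against the step from 16 to 24 h, the rise here was larger for both, by 0.51 for Otx2 (limma adjusted p = 1.27e-04) and 0.34 for Dnmt3b (limma adjusted p = 0.00128) on the log2 scale.

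The B6 share of X-linked RNA fell by 10.7 percentage points in these 8 h. The median over 285 X-linked genes was 42.1% and 41.8% in the 8 h libraries and 31.3% and 31.2% in the 16 h libraries, so the groups stood far apart relative to their spread (42.0% ± 0.239 against 31.2% ± 0.0424, SD, n = 2 each). The autosomal median over 9940 genes stayed between 50.8% and 50.9% in these 4 libraries. The step from 0 to 8 h covered 7.91 points and that from 16 to 24 h 4.90 points, from medians of 49.9% and 49.8% at 0 h and 26.2% and 26.5% at 24 h, and the 24 h that followed added 1.12 points with an SD of 0.648. An exact permutation test of 2 libraries against 2 cannot give a two-sided p under 0.333, so the order of the steps is a description. X-linked genes with a B6 share under 25% numbered 20 and 21 in the 8 h libraries and 89 and 84 in the 16 h libraries. Those still above 45% numbered 99 and 91 at 8 h and 40 and 39 at 16 h.

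**Figure D1:**
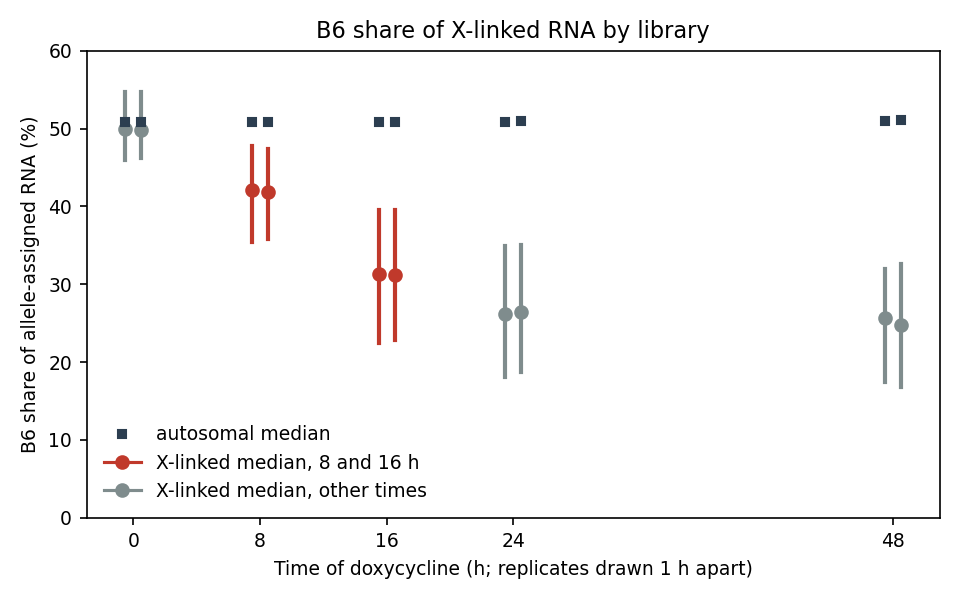
Median B6 share of 285 X-linked genes (circles, with bars from the lower to the upper quartile over genes) and of autosomal genes (squares) in each of the 10 libraries, against hours in the course. The X-linked medians go from 42.1% and 41.8% at 8 h to 31.3% and 31.2% at 16 h while the autosomal medians stay near 50.8%.

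Gene by gene, 140 of the 285 X-linked genes fell in B6 share and 0 rose (limma, adjusted p under 0.05). Over all 10225 genes 1.84% fell and 0.548% rose, and the 9940 autosomal genes gave 48 lower and 56 higher. At an unadjusted p under 0.05, 233 X-linked genes were lower and 0 higher, and 278 of 285 changes were below 0. The median X-linked change was −0.65 in log2 odds with quartiles of −0.97 and −0.39, against 0.003 on the autosomes. The number of calls moved with the libraries fitted: without 1 of the 4 libraries it was 43 to 58, and in a fit of these 4 libraries alone it was 0, with 237 X-linked genes lower and 1 higher at an unadjusted p under 0.05.

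Total RNA was split into a B6 part and a Cast part by multiplying RPKM with the share, to see which allele moved. B6-allele RNA fell in 229 of 285 X-linked genes and rose in 4, against 18.5% lower and 24.9% higher among all genes, with a median change of −0.46. Cast-allele RNA fell in 48 and rose in 47 X-linked genes, against 16.1% lower and 24.6% higher among all genes, with a median of −0.02 beside 0.03 on the autosomes. With libraries centred on their median, 61 fell and 40 rose. Of the 229 genes whose B6 part fell, the Cast part passed the test in neither direction in 158, fell as well in 47 and rose in 24. Total RNA of the 285 genes fell in 177 and rose in 27 (25% and 36% over all genes tested for total RNA), median −0.22 against 0.03 for autosomal genes. Summed RPKM of X-linked genes other than Xist read 3074 and 3055 at 8 h and 2640 and 2635 at 16 h.

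**Figure D2:**
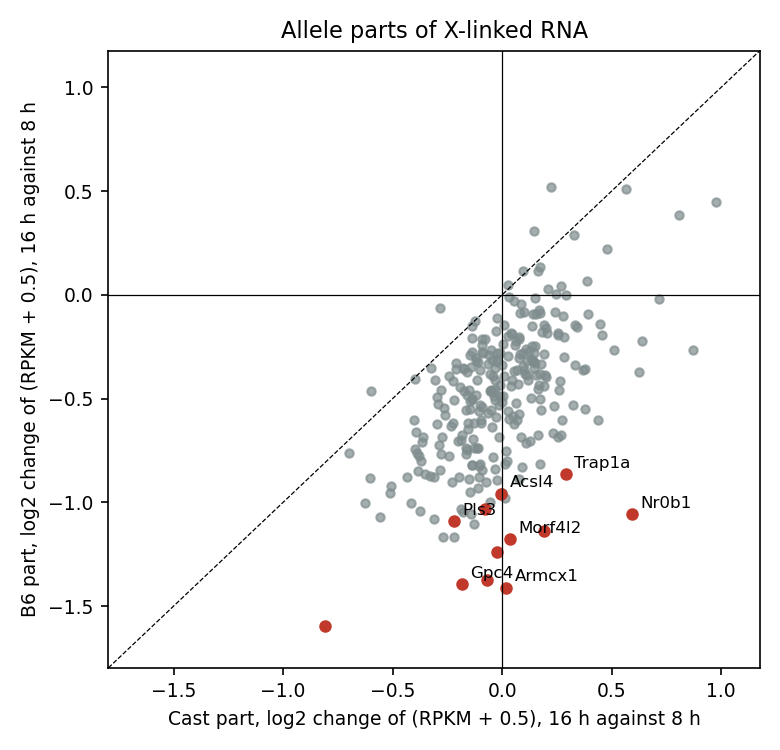
Change from 8 to 16 h of the Cast part (horizontal) and of the B6 part (vertical) of RNA from 285 X-linked genes, both on log2(RPKM + 0.5); red points are the 12 genes with the largest falls in share at a mean RPKM of at least 5. Most points lie below the diagonal of equal change, with a median of −0.46 for the B6 part and −0.02 for the Cast part.

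Xist itself was already high at 8 h. It read 0.0787 and 0.0622 RPKM at 0 h, 35.2 and 38.5 at 8 h, 45.2 and 58.9 at 16 h and 42.4 and 48.6 at 24 h, and its B6 share was 99.9% in all 4 libraries of the interval. The 1.4-fold difference between 16 and 8 h (log2 change 0.48, SE 0.113, limma adjusted p = 0.00584) passed the test, but the 16 h libraries differ from each other more than the 8 h libraries do. Without the first 8 h library the rise no longer passed (log2 change 0.42, adjusted p = 0.0548). Xist gained far less here than in the step from 0 to 8 h (difference -5.55, adjusted p = 1.10e-07).

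The 12 X-linked genes with the largest falls at a mean RPKM of at least 5 were Morf4l2, Armcx1, Nr0b1, Tceal8, Pdk3, Stard8, Gpc4, Wbp5, Acsl4, Trap1a, Pls3 and Bex2, in that order (positions in RefSeq GRCm38.p6, the build of the files). Morf4l2, which encodes an MRG-family chromatin protein (chrX:136732942-136743686), had a B6 share of 27.6 and 22.7% at 8 h and 6.21 and 7.49% at 16 h (log2 odds change -2.05, SE 0.173, limma adjusted p = 0.00378). Armcx1, an armadillo-repeat protein of mitochondria (chrX:134717913-134721917), had 26.6 and 23.4% at 8 h and 9.01 and 8.81% at 16 h (log2 odds change -1.67, SE 0.106, limma adjusted p = 0.00263). Neither gene's groups overlapped, and by 16 h their RNA was nearly all from Cast. Tceal8, Wbp5 and Bex2 lie between these genes, in a stretch that holds the BEX, TCEAL and ARMCX families. Cast-allele RNA of Morf4l2 was 3.86 RPKM on average at 8 h and 3.98 at 16 h, so its B6 part, which went from 1.3 to 0.292 RPKM, carried the change.

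Nr0b1 (Dax1), an orphan nuclear receptor of the naive network (chrX:86191775-86195947), moved in opposite directions on its alleles. Its B6 share was 50.1 and 51.1% at 0 h, 26.9 and 26.5% at 8 h and 10.3 and 9.7% at 16 h (log2 odds change -1.63, SE 0.0837, limma adjusted p = 0.00158). B6-allele RNA fell from a mean of 14.1 to 6.54 RPKM while Cast-allele RNA rose from 38.8 to 58.9 RPKM, both past the threshold (limma adjusted p = 1.25e-06 and 5.08e-06). Total Nr0b1 RNA rose from 52.4 and 53.5 to 66.8 and 64.1 RPKM (log2 change 0.30, SE 0.0397, limma adjusted p = 5.22e-05). Wbp5 and Trap1a were the others of the 12 whose Cast part rose, by 0.19 and 0.29 on the log2 scale, and Stard8, a GTPase-activating protein, and the actin bundler Pls3 fell on both alleles.

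Among the rest, Pdk3, a pyruvate dehydrogenase kinase, went from 36.1 and 34.9% to 16.7 and 15.5%. Gpc4, a glypican that binds growth factors, went from 43.8 and 45.4% to 23.3 and 22.8%, the largest fall of the 12 in percentage points (21.5). Trap1a, a tumour rejection antigen, started with most of its RNA from B6 at 0 h (85.7 and 85.5%) and still stood at 66.7 and 65.2% at 16 h. Bex2 was the least certain, with 33.2 and 38.1% at 8 h and 22 and 18% at 16 h (limma adjusted p = 0.0392), and its call was lost on leaving out any 1 of the 4 libraries (adjusted p from 0.103 to 0.194). The call for Gpc4 was lost without the second 8 h library or either 16 h library (0.0518 to 0.0632), and that for Trap1a without either 16 h library (0.0501 and 0.0603).

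The 8 X-linked genes with the smallest changes at the same level were Pim2, Rhox6, Pgk1, Rbm3, Ftsj1, Dkc1, Idh3g and Siah1b, none of which passed the test. Rbm3, a cold-inducible RNA-binding protein (chrX:8138975-8145880), had 59.3 and 57.6% at 8 h and 57.4 and 56.6% at 16 h. Ftsj1, a tRNA methyltransferase (chrX:8238668-8252406), had 54.8 and 53.3% at 8 h and 51 and 52% at 16 h. Pim2, a serine/threonine kinase (chrX:7878306-7883432), had 37.7 and 35.7% at 8 h and 36.2 and 36.3% at 16 h, while its total RNA rose from 8.84 and 7.71 to 13.6 and 11.5 RPKM and both allele parts rose. Pim2, Rbm3 and Ftsj1 lie within the first 10 Mb of the chromosome. Pgk1 was read as Cast throughout, with shares under 0.5% at 0 h as well, and Eif2s3x had 14.2 and 14.2% at 0 h, so the allele assignment of these genes is in doubt.

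Change varied along the chromosome. In the first 20 Mb the median change was −0.29 and 4 of 40 genes passed, and from 20 to 40 Mb it was −0.38 with 4 of 20. From 40 to 60 Mb the median was −0.83 with 20 of 30 genes past the threshold, and from 60 to 80 Mb −0.59 with 23 of 45. Around Xist, which lies near 103 Mb, it was −0.95 from 80 to 100 Mb (16 of 21) and −0.91 from 100 to 120 Mb (18 of 36). The largest median, −1.14, was from 120 to 140 Mb with 17 of 26 genes, followed by −0.84 from 140 to 160 Mb (28 of 43) and −0.61 beyond 160 Mb (10 of 21). In the step before, the 120 to 140 Mb stretch also had the largest median fall (−0.99) and the first 20 Mb the smallest (−0.14). In the step after, all 9 stretches lay between −0.13 and −0.40. These are descriptions across genes, which share libraries and differ in depth and in number of allelic positions.

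**Figure D3:**
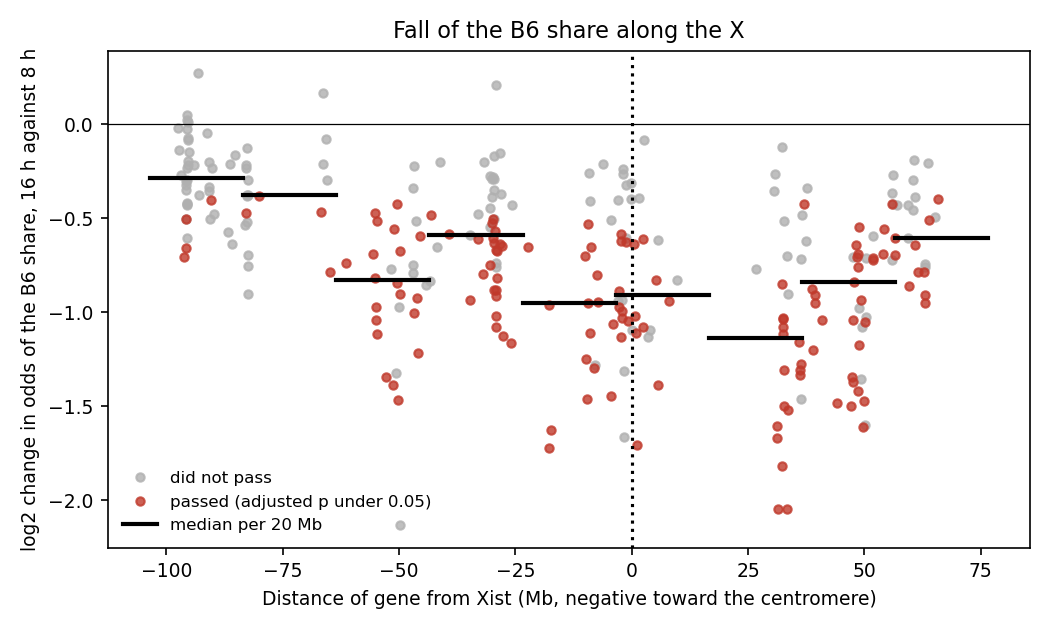
Change in log2 odds of the B6 share from 8 to 16 h (vertical) for 282 X-linked genes with a RefSeq position, against distance from Xist in Mb (horizontal, negative toward the centromere); red points passed the test, grey points did not, and black bars are medians per 20 Mb. The medians run from −0.29 at the centromeric end to −1.14 in the stretch from 120 to 140 Mb of the chromosome.

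Distance alone ordered the genes loosely. With the genes in 3 equal groups, the nearest to Xist, within 30.9 Mb, had a median of −0.69, the middle group −0.91 and the farthest, beyond 54.8 Mb, −0.41 (Spearman's ρ 0.389 between distance and change over 282 genes, a description with no test). By level of expression such groups were closer, −0.72, −0.70 and −0.52 from the lowest to the highest RPKM. Genes with the lowest share at 8 h had the largest further fall in log2 odds, −0.95 in the lowest group against −0.47 in the highest, although 8 h values enter both quantities.

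Of 11 tested genes on a list of known mouse escape genes, 5 fell in share and 0 rose, where 140 of all 285 X-linked genes (49.1%) fell and 0 rose. Their median was -0.39 in log2 odds beside −0.65 over all X-linked genes. The 5 were Kdm5c, Usp9x, Utp14a, Shroom2 and Firre. Position was not accounted for: Kdm6a, Ddx3x, Usp9x and 1810030O07Rik lie in the first 20 Mb, where the median over all 40 genes was −0.29. The 11 also include Eif2s3x, whose allele assignment is in doubt. Kdm5c, a histone H3K4 demethylase, went from 41.5 and 41.6% to 32.5 and 32.5% (adjusted p = 0.00801). Kdm6a, a histone H3K27 demethylase, had 54.2 and 54% at 8 h and 51.4 and 51.1% at 16 h and did not pass (adjusted p = 0.205). Ddx3x, an RNA helicase, had 44.6 and 44.2% at 8 h and 40.5 and 40.2% at 16 h and did not pass either. Of 14 genes on a list of X-linked constitutive genes, 9 fell and 0 rose, with a median of -0.61. Flna, an actin crosslinker, went from 48 and 47.3% to 29.6 and 29.8%, and Hprt, a purine salvage enzyme, from 54.6 and 55.8% to 48.4 and 46.9%. Total Flna RNA did not pass the test (19.1 and 16.3 RPKM at 8 h and 18.7 and 17.5 at 16 h), with a Cast part that rose from 9.27 to 12.7 RPKM on average.

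X-linked genes of pluripotency or signalling gave 7 lower and 0 higher shares of 10, with a median of -0.58 in log2 odds, beside 140 lower of 285 and −0.65 over all X-linked genes. Dusp9, a phosphatase of ERK, went from 47.5 and 47.2% to 36.4 and 37.5% and Klhl13, a ubiquitin ligase adaptor, from 46.7 and 46.7% to 40.3 and 39.8%. In these genes B6-allele RNA did not pass the test, and the Cast part rose (log2 0.45 and 0.28). Fhl1, a LIM protein, fell from 59.9 and 59% to 43.7 and 40.2%.

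Whether a share fell more in this step than in its neighbours was tested directly. Against the step from 0 to 8 h, 1 X-linked gene moved less and 1 more, where 0.264% of all genes gave a lower and 0.244% a higher difference. Rlim (Rnf12, chrX:103957163-103981296), the ubiquitin ligase that degrades the Xist repressor Zfp42, had 50.0 and 49.5% at 0 h, 11.8 and 12.4% at 8 h and 7.72 and 7.96% at 16 h. Most of its fall came in the earlier step (difference 2.11 in log2 odds, SE 0.167, limma adjusted p = 0.0133). Prdx4, a peroxiredoxin of the endoplasmic reticulum (chrX:155323918-155342272), had 60.2 and 59.6% at 0 h, 58.6 and 59.6% at 8 h and 46.4 and 46.7% at 16 h. It moved in this step more than before (difference −0.67, SE 0.0877, adjusted p = 0.0403). Neither passed when 1 of the 8 or 16 h libraries was left out. Against the step from 16 to 24 h, 0 genes on any chromosome passed in either direction (0% and 0% of all genes, limma), with 98 X-linked genes lower and 3 higher at an unadjusted p under 0.05. The steps share the libraries of a time point, so a deviation there enters a difference of steps with more weight.

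Across the genome, 4405 genes rose and 3053 fell in total RNA from 8 to 16 h, 36% and 25% of the 12220 tested. With libraries centred on their median these were 3804 and 3674, so most of the excess of rises depended on the scaling. At 1.5-fold or more these were 839 and 267 genes, 6.87% and 2.18%. The 12 largest rises among well-expressed genes were Slc16a3, Ddit4, Egln3, Bnip3, Aire, Glipr2, Ddah2, Psmb10, Atf5, Abcd4, Rps6ka2 and Chac1. The 12 largest falls among well-expressed genes were 1700057H21Rik, Aqp3, Fgfbp1, Bbx, Tbx3, Snord100, Plagl1, Dazl, Id3, Selt, Htra1 and Phldb1.

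The 4 largest of these rises, Slc16a3, Ddit4, Egln3 and Bnip3, were all in genes lower at 8 h than at 0 h. Their promoters are shown because they head the ranking of rises, from 250 bases before to 50 after the start given for each in a RefSeq promoter table of GRCm38.p6. For Slc16a3 that start lies inside the annotated gene, downstream of its first base. Capitals mark ACGTG or GCGTG on either strand, the core letters of the hypoxia response element. The windows are chr11:120948817-120949116 (+ strand), chr10:59951721-59952020 (- strand), chr12:54203825-54204124 (- strand) and chr7:138909457-138909756 (- strand).
Slc16a3: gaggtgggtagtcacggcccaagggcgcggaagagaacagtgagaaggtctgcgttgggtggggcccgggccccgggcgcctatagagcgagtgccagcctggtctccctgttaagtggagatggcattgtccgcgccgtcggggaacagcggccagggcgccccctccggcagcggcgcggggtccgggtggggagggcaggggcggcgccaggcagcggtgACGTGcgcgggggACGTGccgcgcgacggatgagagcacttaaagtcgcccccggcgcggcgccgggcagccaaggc
Ddit4: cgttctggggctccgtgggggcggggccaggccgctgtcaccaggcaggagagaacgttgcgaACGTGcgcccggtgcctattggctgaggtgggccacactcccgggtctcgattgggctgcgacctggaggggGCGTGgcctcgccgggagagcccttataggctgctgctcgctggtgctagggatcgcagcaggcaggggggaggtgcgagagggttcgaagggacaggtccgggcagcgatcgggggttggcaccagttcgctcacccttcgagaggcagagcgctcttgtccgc
Egln3: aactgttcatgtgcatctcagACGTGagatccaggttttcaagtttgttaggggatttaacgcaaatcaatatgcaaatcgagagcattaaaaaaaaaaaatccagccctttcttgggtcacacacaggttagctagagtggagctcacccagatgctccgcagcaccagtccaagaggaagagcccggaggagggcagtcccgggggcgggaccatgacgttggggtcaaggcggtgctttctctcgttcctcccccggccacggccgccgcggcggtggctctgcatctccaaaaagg
Bnip3: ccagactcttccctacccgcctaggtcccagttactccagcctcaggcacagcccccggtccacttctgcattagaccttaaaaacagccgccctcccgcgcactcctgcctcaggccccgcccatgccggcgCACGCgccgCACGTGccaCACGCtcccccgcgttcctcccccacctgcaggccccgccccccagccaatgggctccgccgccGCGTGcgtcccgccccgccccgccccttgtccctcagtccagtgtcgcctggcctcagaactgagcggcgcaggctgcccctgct

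The windows held 2, 2, 1 and 5 matches, the CACGTG of Bnip3 counting on both strands. Such letters are common: 43.8% of all 32851 promoters in the RefSeq table held a match and 20.6% at least 2, and 68.5% of 9028 tested genes did in any of their promoters. Among the named genes with a promoter in the table, 10 of 11 rises and 5 of 8 falls held a match. A match describes the letters in the window only.

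Slc16a3 encodes the lactate exporter MCT4. It read 6.39 and 8.32 RPKM at 0 h, 5.83 and 6.02 at 8 h, 35.6 and 35.1 at 16 h and 42.7 and 41.7 at 24 h, so both 16 h libraries were several times above every earlier library. The rise was 5.58-fold (log2 change 2.48, SE 0.0888, limma adjusted p = 2.75e-08). Ddit4 (REDD1), an inhibitor of mTORC1, read 34 and 38.3 RPKM at 0 h, 20.7 and 19.2 at 8 h, 78.5 and 82.2 at 16 h and 66.6 and 65.1 at 24 h, a 3.96-fold rise over the interval (log2 change 1.98, SE 0.0541, limma adjusted p = 1.20e-09). The 8 h libraries were its lowest. Egln3, a prolyl hydroxylase that marks HIF alpha subunits for degradation, read 6.97 and 7.85 RPKM at 8 h and 27 and 25.7 at 16 h, a 3.4-fold rise, and went on to 41.1 and 37.6 at 24 h. Bnip3, a mitophagy receptor, read 11.1 and 11.9 RPKM at 8 h and 38.9 and 40.9 at 16 h, a 3.37-fold rise, and 41.3 and 38.6 at 24 h. All 4 genes moved differently than in the step before, with differences between steps of 2.76, 2.83, 2.27 and 2.38 in that order, each past the threshold. That comparison does not test the earlier fall by itself, which for Slc16a3 was smaller than the gap between its 0 h libraries.

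Aire, a transcriptional regulator best known from the thymus, read 1.73 and 2.41 RPKM at 0 h, 15.3 and 15.2 at 8 h, 37.7 and 41.1 at 16 h and 40.3 and 43.4 at 24 h, and its rise here was smaller than the one before it (difference -1.29). Psmb10, a subunit of the immunoproteasome, rose 2.46-fold from 5.54 and 5.44 RPKM and rose in the steps on either side as well. Rps6ka2, a kinase downstream of ERK, rose from 7.33 and 6.69 to 17.3 and 17.2 RPKM, with values in the 0 h libraries (6.83 and 6.32) close to those at 8 h. Ddah2, which hydrolyses methylarginines, came back from 7.54 and 7.03 RPKM to 18.7 and 19, near its 21.2 and 22.4 at 0 h.

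The largest of the 12 falls was 1700057H21Rik, at 13 and 13.3 RPKM at 8 h and 4.54 and 4.7 at 16 h (2.67-fold, log2 change -1.42, SE 0.0489, limma adjusted p = 3.58e-09). Several of the 12 had peaked at 8 h. Bbx, an HMG-box protein, read 8.75 and 8.26 RPKM at 0 h, 40.0 and 38.6 at 8 h, 16.1 and 15.9 at 16 h and 13.8 and 14.4 at 24 h. Fgfbp1, a secreted FGF carrier, read 13.4 and 13.8 RPKM at 0 h, 46.5 and 45.6 at 8 h, 18.5 and 18.1 at 16 h and 11.3 and 11.4 at 24 h, and Id3, an inhibitor of basic helix-loop-helix factors, 8.28 and 8.15 RPKM at 0 h, 19.6 and 18.5 at 8 h, 9.88 and 9.4 at 16 h and 12.4 and 11 at 24 h. Others declined up to 24 h. Aqp3, a water and glycerol channel, read 43.5 and 44.4 RPKM at 0 h, 12.5 and 12.8 at 8 h, 4.32 and 4.61 at 16 h and 2.46 and 2.74 at 24 h. Plagl1, an imprinted zinc finger factor, fell from 22.8 and 25.1 to 9.81 and 11.1 RPKM, and Dazl, an RNA-binding protein of germ cells, from 46.8 and 50.6 to 23.8 and 23.3. Snord100 is a small nucleolar RNA encoded inside a host gene, and its 27.2 and 33.2 RPKM at 8 h and 12.5 and 13.3 at 16 h cannot be separated from reads of the host.

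**Figure D4:**
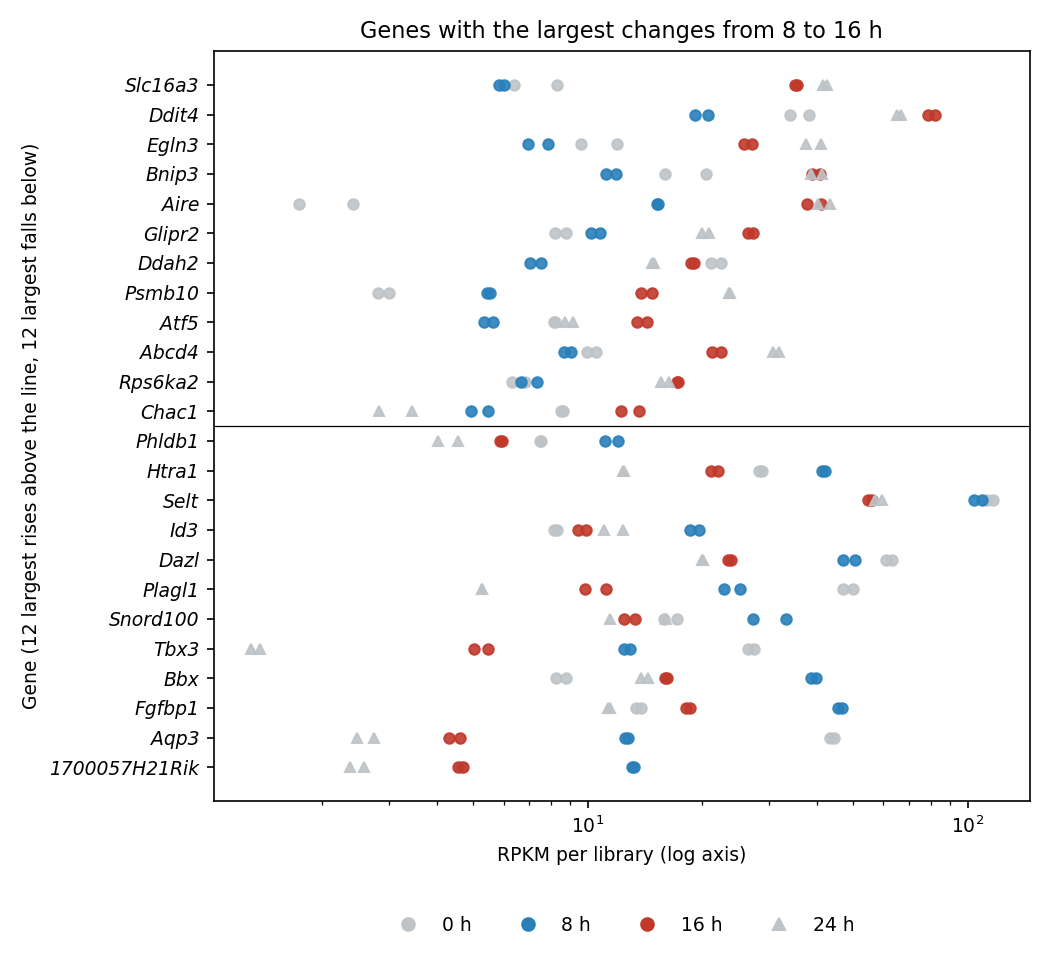
RPKM per library on a log axis for the 12 largest rises (above the line) and the 12 largest falls (below it) from 8 to 16 h among well-expressed genes. Colours mark the time point and each point is 1 library. The 16 h points lie clear of the 8 h points in every gene, by the rule that chose them.

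Naive pluripotency genes mostly fell. Of 14 tested, 9 fell, 4 rose and 1 did not pass, where 25% of all genes tested fell and 36% rose. Their median was -0.27 against 0.03 over all genes tested, and their summed RPKM was 1144 and 1202 at 8 h and 1008 and 1052 at 16 h. Tbx3, a T-box factor, fell 2.3-fold from 12.5 and 12.9 to 5.03 and 5.46 RPKM. Nanog, a homeobox factor, read 632 and 640.3 RPKM at 0 h, 367 and 395 at 8 h, 238 and 254 at 16 h and 100.0 and 106 at 24 h (log2 change -0.63, SE 0.0460, limma adjusted p = 5.98e-07). Tfcp2l1 fell 1.62-fold and Nr5a2, a nuclear receptor, 1.56-fold. Esrrb, an orphan nuclear receptor, fell by 0.18 on the log2 scale, a call that was lost on leaving out the first 8 h library (adjusted p = 0.084) or the first 16 h library (0.0554). Zfp42 (Rex1), which represses Xist and is a target of Rlim, read 253 and 268 RPKM at 8 h and 268 and 285 at 16 h and did not pass (adjusted p = 0.0915). The 4 that rose were Klf2, Fgf4, Tcl1 and Nr0b1, with Fgf4, the ligand that drives exit from the naive state, at 58.9 and 60.9 RPKM at 8 h and 91.8 and 93.1 at 16 h.

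Core pluripotency factors moved less, with 5 of 8 higher and 3 lower (36% and 25% over all genes tested), all by less than 1.5-fold. Pou5f1 (Oct4) read 596 and 547 RPKM at 8 h and 667 and 667 at 16 h and Sox2 204 and 220.5 RPKM at 8 h and 178 and 180.2 at 16 h. Utf1, a chromatin-associated factor, rose from 271 and 260.3 to 348 and 335 RPKM.

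Formative and primed genes rose in 12 of 16 cases, with 1 lower and 3 not passed (36% higher and 25% lower over all genes tested). Of the 12 rises, 7 were at least 1.5-fold, and the median of the list was 0.31. Lef1, a nuclear partner of β-catenin, was lower at 8 h than at 0 h and read 4.38 and 4.38 RPKM at 0 h, 3.61 and 3.53 at 8 h, 11.6 and 11.5 at 16 h and 15.7 and 15.4 at 24 h, a 2.96-fold rise (log2 change 1.57, SE 0.0446, limma adjusted p = 1.24e-09). Fgf5, the classical marker of the egg cylinder epiblast, was still low at 1.05 and 1.09 RPKM at 8 h and 4.56 and 3.85 at 16 h but rose 2.99-fold, and its main increase came later (20.9 and 20.7 at 24 h). Fgf15, another FGF ligand, rose 2.38-fold, and Grhl2, a grainyhead factor of epithelia, 1.51-fold. Pou3f1 (Oct6) rose less, from 6.82 and 7.45 to 9.43 and 8.33 RPKM. Foxd3, Sox3 and Sall2 did not pass, and Cdh2 (N-cadherin) fell 2.06-fold.

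DNA methylation genes rose in 8 of 9 cases, where 36% of all genes tested rose. Dnmt3l, the cofactor of de novo methylation, read 17 and 17.3 RPKM at 0 h, 143.9 and 139 at 8 h, 314 and 305 at 16 h and 343 and 344 at 24 h, and Dnmt3a 13.9 and 12.9 RPKM at 8 h and 30.7 and 30.1 at 16 h, a 2.23-fold rise (log2 change 1.16, SE 0.0430, limma adjusted p = 5.34e-09). Maintenance genes moved little, with Dnmt1 up by 0.18 and Uhrf1 by 0.18 on the log2 scale. Tet3 rose 1.47-fold from 1.26 and 1.2 RPKM, whereas Tet2 was the 1 gene of the list that fell (log2 -0.17).

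Epithelial junction genes rose in 9 of 11 cases with 0 lower (36% and 25% over all genes tested), 6 by at least 1.5-fold, median 0.62. Cldn4, a tight junction protein, read 25.8 and 26.9 RPKM at 0 h, 19.7 and 18.1 at 8 h, 44.3 and 43.6 at 16 h and 47.8 and 47.2 at 24 h, and Cldn6 rose to 19.9 and 18.4 RPKM from 9.72 and 8.93. Esrp1, an epithelial splicing regulator, read 0.447 and 0.320 RPKM at 0 h, 5.35 and 5.12 at 8 h, 12.8 and 12.5 at 16 h and 19.4 and 20.2 at 24 h. Cdh1 (E-cadherin) rose from 80.2 and 76.6 to 112 and 110.4 RPKM and Epcam from 54.1 and 59.8 to 87.3 and 88.1, whereas Tjp1 and Krt8 did not pass.

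Glycolysis genes rose in 10 of 13 cases with 0 lower (36% and 25% over all genes tested), median 0.33. Pfkl, the liver form of phosphofructokinase, rose 2.15-fold from 37.2 and 34.2 to 77.7 and 76.9 RPKM. Ldha, which makes lactate, rose 1.78-fold from 240.4 and 246 to 439.6 and 427, and Aldoa 1.57-fold. The glucose transporters Slc2a1 and Slc2a3 did not pass, nor did Hk2. On the X, Pgk1 rose 1.64-fold in total RNA, from 21.4 and 19.2 to 33.5 and 33.8 RPKM, the 1 constitutive gene of 14 that rose.

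Genes of the integrated stress response, run by the factor ATF4, rose in 8 of 9 cases, where 36% of all genes tested rose. Of these rises 6 were at least 1.5-fold, and the median of the list was 0.72. Atf4 read 210.3 and 225 RPKM at 0 h, 180.5 and 181 at 8 h, 280.4 and 284 at 16 h and 179 and 174 at 24 h (log2 change 0.64, SE 0.0405, limma adjusted p = 1.80e-07). Chac1, which degrades glutathione, read 8.6 and 8.51 RPKM at 0 h, 5.48 and 4.93 at 8 h, 12.3 and 13.7 at 16 h and 3.44 and 2.82 at 24 h, and Trib3, a pseudokinase, 15.8 and 17.2 RPKM at 0 h, 11.1 and 10.7 at 8 h, 24.4 and 25.4 at 16 h and 10.5 and 10.4 at 24 h. For Atf4, Chac1 and Trib3 the 16 h libraries were the highest of the 4 time points from 0 to 24 h, and the rise ended by 24 h. Sesn2 and Psat1 had the same order. In Atf3 and Ddit3 the 16 h libraries overlapped those of 0 h, and Ddit4 was still well above its 8 h level at 24 h. Asns, asparagine synthetase, fell from 8 to 16 h, from 183 and 181 to 153 and 159 RPKM. Against the step from 16 to 24 h, where 30.3% of genes gave a higher and 18% a lower difference, the 5 largest higher differences among well-expressed genes whose 8 and 16 h libraries did not overlap were Chac1 (3.13), Pck2 (2.72), Vegfa (2.59), Gpt2 (2.44) and Trib3 (2.37). The 5 largest lower differences by the same rule were Snord100, Id3, Hspa5, Hmgcs1 and Snord53. Hspa5, the chaperone BiP of the endoplasmic reticulum, read 232 and 238 RPKM at 0 h, 188 and 186 at 8 h, 147 and 139 at 16 h and 248 and 252 at 24 h. Hmgcs1, of cholesterol synthesis, read 55.1 and 55.6 RPKM at 0 h, 46.5 and 47.8 at 8 h, 36.5 and 36 at 16 h and 63 and 63.2 at 24 h. Both were lowest at 16 h among these 4 time points. At 48 h Hspa5 was lower still (133 and 136 RPKM), while Hmgcs1 read 79.5 and 83.5.

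Of 12 tested ERK response genes, 1 rose, 2 fell and 9 did not pass from 8 to 16 h, where 36% of all genes tested rose and 25% fell. Spry4, a feedback inhibitor of the ERK pathway, read 0.182 and 0.141 RPKM at 0 h, 30.4 and 27.8 at 8 h, 27.6 and 25.4 at 16 h and 25.2 and 25.2 at 24 h, and the ERK phosphatase Dusp6 1.25 and 1.21 RPKM at 0 h, 35 and 33.3 at 8 h, 36.3 and 33 at 16 h and 42.5 and 39 at 24 h. Against the step from 0 to 8 h, where 32.5% of genes gave a higher and 19.1% a lower difference, the 5 largest lower differences among well-expressed genes whose 8 and 16 h libraries did not overlap were Spry4, Xist, Robo4, Dusp4 and Gm42808, from -5.62 to -3.79. Etv4, an ETS factor (-5.32), and Dusp6 (-4.30) had differences in that range, but their 8 and 16 h libraries overlapped. The 5 largest higher ones by the same rule were Ddah2, Ddit4, Slc16a3, Elf3 and Lefty1. Lefty1, an inhibitor of Nodal, read 40.0 and 42.3 RPKM at 0 h, 10.3 and 9.84 at 8 h, 13.5 and 15.1 at 16 h and 19.9 and 19.6 at 24 h.

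Wnt targets gave 6 higher, 2 lower and 1 not passed of 9, where all genes tested gave 36% higher and 25% lower. Axin2, a negative feedback regulator of the pathway, read 9.7 and 10.1 RPKM at 0 h, 3.76 and 3.52 at 8 h, 5.89 and 5.53 at 16 h and 6.6 and 6.78 at 24 h and rose 1.5-fold. T (Brachyury) was among the falls, at 15.7 and 15.8 RPKM at 0 h, 4.18 and 3.94 at 8 h, 0.527 and 0.470 at 16 h and 0.547 and 0.630 at 24 h, a 4.57-fold fall (log2 change -2.19, SE 0.0579, limma adjusted p = 1.12e-09), and so was Cdx1, a caudal homeobox factor, at 6.61 and 6.47 and then 1.85 and 1.86. LIF and STAT3 targets gave 3 higher, 4 lower and 4 not passed of 11, with Socs3, a STAT3 feedback inhibitor, at 4.11 and 4.67 RPKM at 8 h and 4.79 and 4.69 at 16 h. Nodal, BMP and Id genes gave 6 higher, 3 lower and 2 not passed of 11, with Id1 falling alongside Id3 from 45.6 and 43.6 to 33.5 and 28.4 RPKM and Nodal rising from 24.3 and 23.2 to 29.2 and 28.4.

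G1 regulators gave 6 higher, 1 lower and 5 not passed of 12, among them the inhibitor Cdkn1a (p21) at 80.1 and 81 RPKM at 0 h, 25.2 and 24.4 at 8 h, 38.1 and 38 at 16 h and 33.5 and 32.6 at 24 h. Genes of the p53 response gave 4 higher, 4 lower and 2 not passed of 10, with Mdm2 at 27.7 and 28.7 RPKM at 8 h and 26.6 and 26.4 at 16 h. Polycomb genes gave 4 higher, 3 lower and 5 not passed of 12, all within 1.5-fold. All genes tested gave 36% higher and 25% lower, which the Polycomb counts are close to. Xist partners gave 1 higher, 5 lower and 8 not passed of 14. Spen, the repressor that Xist RNA recruits, read 13 and 11.3 RPKM at 8 h and 13.4 and 13.7 at 16 h and did not pass. At the X-inactivation centre 3 of 6 genes rose (Xist, Tsx and Cdx4), Rlim fell in total RNA, and in B6 share Rlim fell and 2 did not pass.

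In total RNA, 25% of all genes tested fell and 36% rose. Of 357 tested X-linked genes, 204 fell, 38 rose and 115 did not pass, with a median log2 change of −0.20. Among them, known escape genes gave 0 higher, 6 lower and 6 not passed of 12, constitutive genes 1 higher, 8 lower and 5 not passed of 14, and pluripotency or signalling genes 3 higher, 4 lower and 4 not passed of 11. Atrx, a chromatin remodeller, fell 1.72-fold from 12.7 and 13.1 to 6.86 and 7.73 RPKM.

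**Figure D5:**
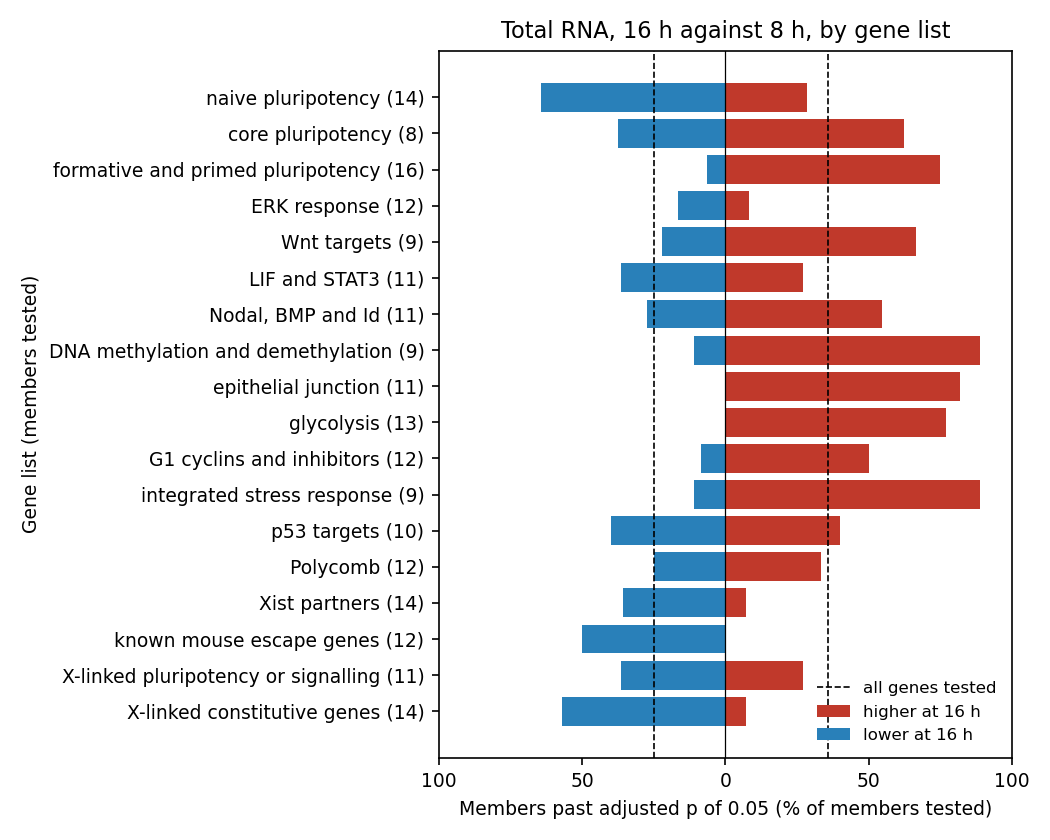
Percent of tested members of each gene list drawn that were higher (red, right) or lower (blue, left) at 16 h than at 8 h in total RNA at an adjusted p under 0.05, with dashed lines at the percent over all genes tested (36% higher and 25% lower). Only lists with at least 8 tested members are drawn, without the list chosen after the values were seen. The number of tested members follows each name; the lists were drawn up with earlier results of these data known, and bars of short lists move in large steps.

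Few markers of other cell types passed the level filter, and their counts stand beside 36% higher and 25% lower over all genes tested. Primitive streak genes gave 0 higher, 2 lower and 1 not passed of 3 tested, and Mixl1, Gsc, Mesp1 and others were under the level filter. Eomes, which is also an early epiblast gene, read 8.1 and 8.08 RPKM at 8 h and 8.81 and 8.19 at 16 h and did not pass. Neuroectoderm genes gave 2 higher and 1 lower of 3 tested, with Sox1, Pax6 and others under the filter. Primitive endoderm genes gave 0 higher, 2 lower and 2 not passed of 4, with Gata4, Gata6 and Sox17 under the filter. Trophectoderm genes gave 1 higher, 2 lower and 1 not passed of 4, and Cdx2 stayed at or below 0.125 RPKM in the 4 libraries. Of the 2-cell-stage genes only Usp17lc was tested, and it fell. The 3 tested fibroblast genes all rose, with a summed RPKM of 20.1 and 19.3 at 8 h and 40.9 and 39.8 at 16 h. Nearly all of that sum was the surface antigen Thy1 (19.1 and 18.3 RPKM at 8 h and 39.3 and 38.4 at 16 h). The smooth muscle actin Acta2 read 0.104 and 0.117 RPKM at 0 h, 0.152 and 0.0840 at 8 h, 0.438 and 0.303 at 16 h and 2.43 and 2.16 at 24 h. Col1a1 rose in this interval but was lower at 24 h than at 0 h. It read 1.22 and 1.25 RPKM at 0 h, 0.681 and 0.705 at 8 h, 0.819 and 0.812 at 16 h and 0.418 and 0.429 at 24 h. Dcn, a matrix proteoglycan under the level filter, read 0.0149 and 0.0411 RPKM at 0 h, 0.0124 and 0.0538 at 8 h, 0.190 and 0.156 at 16 h and 1.41 and 1.3 at 24 h. Col1a2, under the filter too, read 0.495 and 0.420 RPKM at 0 h, 0.221 and 0.171 at 8 h, 0.159 and 0.166 at 16 h and 0.240 and 0.207 at 24 h. Col3a1 and Postn were not among the genes with values. Whether fibroblast RNA had a part in the other results was not tested.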

How the data were processed

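The series holds 32 libraries. The mRNA-seq of differentiating cells (10 libraries, 2 each at 0, 8, 16, 24 and 48 h) was used here, and PRO-seq and mRNA-seq of undifferentiated cells only beside it. Per the labels, libraries were stranded, polyA-selected TruSeq mRNA. The submitters' processing notes list, without roles, the build mm10 and the tools TopHat2 2.1.0, Bowtie 1.0.0, HTSeq 0.6.1, cutadapt 1.8.2 and SAMtools. For the allelic division of reads, the sources used here name no method. The authors deposited RPKM per gene and the B6 fraction of allele-assigned reads (printed here as a percent) for RNA, and for PRO-seq read counts per allele with that fraction and RPKM. No allelic read numbers come with the RNA fractions, so no interval for a single share can be given.

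Computed here with R 4.3.3 and limma 3.58.1 (trend and robust, time point as the only term, all 10 libraries): log2(RPKM + 0.5) at a mean RPKM of at least 0.5, the log2 odds of the share with 0.01 added to both sides for genes averaging 1 RPKM or more with a share in all 10 libraries, and the allele parts, RPKM multiplied by the share or by the rest. P-values are two-sided and adjusted by Benjamini-Hochberg. The code was tested on simulated data. Members and gene lists were chosen with earlier results of these data known. Named in total RNA were the 12 largest rises and falls past the threshold with a mean log2 value of at least 3 and no overlap between groups; in the share the 12 largest falls and 8 smallest changes on the X at a mean RPKM of at least 5; and the 5 largest differences between steps in each direction, by the same level and overlap rules; with Xist, Otx2, Dnmt3b and list members. Relative depth was read from the steps of low RPKM values, of which at least 94.8% came out as whole reads within 0.002. Positions and promoters are from RefSeq GRCm38.p6, the build of mm10. Alternatives were other pseudocounts, filters, median centring, the share on its own scale, fewer libraries and each library left out in turn.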

Additional observations from a re-analysis of the deposited data

Results flagged for a closer look

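The change from 8 to 16 h differed from that in a neighbouring step, by the limma test of the difference itself, in the following results. In B6 share against the step from 0 to 8 h, Rlim differed by 2.11 and Prdx4 by −0.67 in log2 odds, with most of the fall of Rlim before 8 h and that of Prdx4 after 8 h. In total RNA against the same step, the log2 difference was 2.83 for Ddah2, 2.83 for Ddit4, 2.76 for Slc16a3, 2.68 for Elf3 and 2.47 for Lefty1, which all fell before 8 h and rose after it. It was -5.62 for Spry4, -5.55 for Xist, -4.94 for Robo4, -4.33 for Dusp4 and -3.79 for Gm42808, which lay at 0.605 RPKM or below at 0 h and had risen by 8 h. Against the step from 16 to 24 h, the log2 difference was 3.13 for Chac1, 2.72 for Pck2, 2.59 for Vegfa, 2.44 for Gpt2 and 2.37 for Trib3. All of these were lower at 8 h than at 0 h, rose from 8 to 16 h and fell by 24 h. The log2 difference was -1.26 for Snord100, -1.22 for Id3, -1.19 for Hspa5, -1.17 for Hmgcs1 and -1.16 for Snord53. The 10 genes of each comparison were chosen as its largest differences among well-expressed genes whose 8 and 16 h libraries did not overlap, so their size is a description. Reads of Snord100 and Snord53 cannot be separated from those of their host genes, and without the first 16 h library neither difference passed (limma adjusted p = 0.0575 for Snord100 and 0.135 for Snord53). That of Snord53 was also lost without either 24 h library (0.0661 and 0.0596).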

How the results depend on the processing

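No paired analysis was possible because the differentiating libraries carry no replicate number in their labels. No result changed direction under any alternative run. The share calls moved most with the libraries fitted. Leaving out 1 library of the 4 at a time gave 43 to 58 X-linked genes with a lower share (140 with all), 5 to 18 autosomal genes lower and 1 to 17 higher (48 and 56 with all), and 0 X-linked genes in either direction for the difference from the step before, which leaving out a 0 h library also reduced to 0 lower in both cases. With the 8 and 16 h libraries alone, 0 X-linked, 0 autosomal lower and 0 autosomal higher shares passed, and the smallest X-linked adjusted p was 0.105 in limma. A mean RPKM of at least 5 left 78 lower X-linked shares, with fewer genes tested, and moved the median share to 33.6% at 16 h and 43.5% at 8 h. No filter gave 29 lower autosomal shares. A variance trend on RPKM, chosen after seeing the data, gave 86 lower and 96 higher autosomal shares, and 4 X-linked genes lower for each step difference. On leaving out a library, B6-part rises on the X numbered 2 to 3, Cast-part rises 29 to 43, and total RNA differences from the step after 1229 to 2197 lower and 2354 to 3819 higher; these causes were not tested. Of results for single named genes, 371 of 374 in total RNA, 178 of 200 in the share and 176 of 180 in step differences stayed on their side of the threshold. Depth is unknown, so shares of weakly expressed genes carry an error that cannot be given.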

Other observations

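A list of genes of oxygen sensing and the hypoxia response was drawn up after the rises of Slc16a3, Ddit4, Egln3 and Bnip3 had been seen, so its values are given without a test of the list. Of its 22 tested members, the lactate exporter, the mTORC1 inhibitor, the prolyl hydroxylase and the mitophagy receptor were already described. Vegfa, a vascular growth factor, read 12.8 and 14.1 RPKM at 0 h, 6.2 and 6.31 at 8 h, 11.2 and 13.2 at 16 h and 3.43 and 3.43 at 24 h, a trough at 8 h and again at 24 h on either side of the 16 h libraries. Pdk1, a pyruvate dehydrogenase kinase, read 6.34 and 7.21 RPKM at 0 h, 13 and 13.5 at 8 h, 26 and 25 at 16 h and 31.9 and 30.9 at 24 h and was higher at each time up to 24 h. Ankrd37 read 5.54 and 5.98 RPKM at 8 h and 8.96 and 9.64 at 16 h, Ndrg1 4.11 and 3.74 RPKM at 8 h and 6.81 and 6.48 at 16 h, and Bhlhe40, a circadian and stress repressor, 9.54 and 11.1 RPKM at 0 h, 2.38 and 2.16 at 8 h, 3.7 and 3.51 at 16 h and 3.14 and 2.74 at 24 h. The collagen prolyl hydroxylase P4ha1 read 7.88 and 8.42 RPKM at 8 h and 10.6 and 10.7 at 16 h. Ero1l read 26.4 and 27.4 RPKM at 8 h and 26.8 and 26.7 at 16 h, Kdm3a 38.5 and 38.8 RPKM at 8 h and 37.7 and 37.2 at 16 h and Higd1a 20.1 and 20.5 RPKM at 8 h and 19.8 and 20.2 at 16 h, none past the threshold, and Bnip3l fell by 0.16 on the log2 scale. The summed RPKM of the 23 members in the table was 611 and 607 at 8 h and 982 and 969 at 16 h. Much of that sum and of its rise was Ldha, at 240 and 246 RPKM at 8 h and 440 and 427 at 16 h.

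Some autosomal genes changed their allelic balance in the same interval. The following were chosen after their values were seen, from the ends of a list of 67 autosomal genes at a mean RPKM of at least 5 whose share passed the test. Nefl and Nefm, neighbouring neurofilament genes on chromosome 14, had B6 shares of 91.9 and 92.8% and 98.1 and 97.2% at 8 h and of 72.8 and 73.3% and 92.2 and 92.5% at 16 h. Vegfa had 71.1 and 71.7% at 8 h and 59.7 and 57.1% at 16 h, and Ndrg1 86.5 and 81.8% and then 67.8 and 69.2%, so that in both genes the B6 share was lower in the libraries where total RNA was higher. Pou3f1 went from 16 and 18.7% to 30.5 and 33.1%, and Trh, the precursor of thyrotropin-releasing hormone, from 67 and 68.2% to 82.3 and 83.2%. Otx2, with 7.84 and 9.97% at 0 h, had 23.6 and 24.7% at 8 h and 30.4 and 28.4% at 16 h, a change that did not pass (adjusted p = 0.234).

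Over 201 X-linked genes measured in every course, differentiating cells had a median B6 share of 42.7% ± 0.0720 at 8 h, which became 32.1% ± 0.534 at 16 h (SD, n = 2). In mRNA of undifferentiated cells the median was 46.0% ± 2.66 at 8 h (SD, n = 2). It read 41.3% ± 4.16 by 12 h, and 33.8% ± 4.80 by 24 h. PRO-seq, which reads engaged polymerase, gave 40.5% in the 8 h library, 34.3% in the 12 h library and 30.9% ± 0.284 over 2 libraries of 24 h. No 16 h library of undifferentiated cells is analysed here. Along the X, changes here span 8 to 16 h and those of the undifferentiated courses 8 to 24 h, so their sizes do not compare between courses. The stretch from 40 to 60 Mb had a median change of −12.9 points here, −18.1 points in undifferentiated mRNA and −16.7 points in PRO-seq, and the first 20 Mb −5.52, −9.77 and −6.60 points. The order of the 9 stretches was not the same in each course. The stretch with the largest change here, 120 to 140 Mb, had −13.9, −16.5 and −11.5 points, and that from 100 to 120 Mb, the smallest in PRO-seq, −9.66, −12.3 and −5.63 points.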
